A study of Homo sapiens with 12 samples.

Results

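A set of 44 genes that encode ribosome biogenesis and nucleolar factors was examined in U87 cells under hypoxia, a human glioblastoma line, as 44 rows of a table of 20263 genes. The members were taken by gene symbol and each symbol matched 1 row. The list was chosen with earlier results of these data known, so counts over it are descriptions. Messenger RNA had been sequenced in 4 groups of 3 libraries, and every group was U-87 MG cultured at 1% O2 for 72 h according to the series record. The vector group carried an empty vector, the HIF1α-ko group a knockout of HIF1α, the HIF2α-ko group a knockout of HIF2α, and the HIF1α/2α-ko group a knockout of both. HIF1α (gene HIF1A) and HIF2α (gene EPAS1) are the oxygen-regulated subunits of the hypoxia-inducible transcription factors, and hypoxia was common to all groups. The way the knockouts were made, and whether a group was a clone or a pool, are not given in the sources used here. The replicates are numbered without a stated culture or day, so p-values measure the spread between these libraries, which may be technical.

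Ribosomes are assembled in the nucleolus. RNA polymerase I transcribes a long precursor ribosomal RNA, small nucleolar ribonucleoproteins (snoRNPs) modify it, and a succession of assembly factors folds and cleaves it into the small and the large ribosomal subunit. Box C/D snoRNPs add methyl groups to ribose and box H/ACA snoRNPs turn uridine into pseudouridine, each guided by a small nucleolar RNA that is usually cut from an intron of a host gene. Many of these factors are known MYC target genes, and their output is known to be matched to cell growth.

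The short sequences behind the members that the results turn on are shown first. PPAN (chr19:10106289-10111634, plus strand, GRCh38) encodes a factor of large-subunit assembly and hosts 2 box C/D snoRNA genes. These RNAs are not polyadenylated and their levels were not measured here. They are printed because PPAN showed the largest fall of the set and carries them in its transcript. Capitals mark the letters of box C (TGATGA) and every copy of the letters of box D (CTGA), which overlap in the second RNA.
SNORD105, chr19:10107651-10107735, plus strand: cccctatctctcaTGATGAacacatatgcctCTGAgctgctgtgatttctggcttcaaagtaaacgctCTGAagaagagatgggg
SNORD105B, chr19:10109757-10109835, plus strand: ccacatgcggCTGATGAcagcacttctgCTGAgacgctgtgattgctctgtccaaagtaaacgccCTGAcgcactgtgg
By the GENCODE 29 annotation, 7 of the 44 members (15.9%) held a snoRNA gene on the same strand, namely NOP56, NOP58, DKC1, WDR43, PPAN, NCL and GNL3. The share was 1.67% among 11705 tested protein-coding genes. NOP56, itself a protein of the box C/D particle, held 5 of these genes and GNL3 held 6.

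Promoter stretches were then read from the RefSeq promoter table (GRCh38.p14), in which 37 of the 44 members had an entry. The 250 bases before the start site were searched on both strands for CACGTG, the E-box that MYC and related factors read. They were also searched for the core letters of hypoxia response elements in their form with a leading A (ACGTG), which lies inside every E-box, and in their form with a leading G (GCGTG). The E-box occurred in 3 of the 37 (8.11%), those of EBNA1BP2, UTP20 and UTP4, against 7.84% of 15843 protein-coding promoters. The core with A occurred in 9 (24.3%, against 20.8%), and the core with G in 21 (56.8%, against 39.2%). A match describes letters and is not a measured binding site. The 4 stretches below lie just before the first exon and were chosen after the values were seen: PPAN and FBL were the members lowest in HIF1α-ko, DDX21 was among the largest rises in HIF1α/2α-ko, and UTP20 holds an E-box. Capitals mark every match on either strand.
PPAN, chr19:10106073-10106222, plus strand: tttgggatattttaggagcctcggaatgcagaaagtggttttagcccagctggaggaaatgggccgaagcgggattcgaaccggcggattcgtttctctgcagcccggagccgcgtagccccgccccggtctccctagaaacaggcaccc
FBL, chr19:39846415-39846529, minus strand: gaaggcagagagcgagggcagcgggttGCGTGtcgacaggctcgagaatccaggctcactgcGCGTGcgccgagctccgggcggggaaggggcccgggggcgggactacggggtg
DDX21, chr10:68956020-68956127, plus strand: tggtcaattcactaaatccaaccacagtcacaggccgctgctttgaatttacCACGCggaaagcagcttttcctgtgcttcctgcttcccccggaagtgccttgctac
UTP20, chr12:101279955-101280104, plus strand: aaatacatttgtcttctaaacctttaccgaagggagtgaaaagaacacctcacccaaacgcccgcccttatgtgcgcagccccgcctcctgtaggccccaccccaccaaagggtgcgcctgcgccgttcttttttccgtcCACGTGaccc
The PPAN stretch held none of the searched letters, FBL held the core with G at 2 places, DDX21 held it once on the other strand, and UTP20 held the E-box at 1 place. Annotated exon bases before the RefSeq start were left out of the stretches, 35 for FBL and 42 for DDX21. In its full 250 bases FBL held the core with G at 3 places and the core with A at 1 place.

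Levels are in TPM, a unit in which reads are divided by the length of the gene and every library is brought to the same sum. The deposited columns summed to between 999955 and 999982, so the depth of a library is unknown and no counting error can be given. The targeted genes were read first. HIF1A measured 112, 110 and 151 TPM in vector and 57.3, 49.5 and 38.6 TPM in HIF1α-ko, with a log2 fold change of -1.34 ± 0.20 (SE). EPAS1 measured 286 to 346 TPM in vector, 87.6 to 118 TPM in HIF2α-ko and 102 to 130 TPM in HIF1α/2α-ko. HIF1A in HIF1α/2α-ko lay at 67.8 to 89.2 TPM, below every vector library and above every HIF1α-ko library, and a knockout need not remove the transcript. Between HIF1α/2α-ko and HIF2α-ko neither target was called, and neither had an unadjusted limma p under 0.05. In HIF2α-ko against vector both targets had an unadjusted limma p under 0.05, with a median log2 fold change of -1.05, and 1 was called lower. The line's known deletion was visible, since CDKN2A and CDKN2B were listed at 0 in all 12 libraries and MTAP at no more than 0.014 TPM. VIM and TNC, mesenchymal and glioma markers, were abundant, whereas GFAP and S100B, the astrocyte markers, stayed below 1 TPM. The line's own markers moved with the group: of 9 tested, VIM, TNC, FN1, SPARC and SOX9 fell in HIF1α/2α-ko against vector and OLIG2 rose, with a median log2 fold change of -0.71. Of 14 markers of other cell types, the leukocyte gene PTPRC was at or near 0, and the lysosomal gene CD68 made up most of the summed level of 1323 to 1676 TPM in vector and 615 to 855 TPM in HIF1α/2α-ko; without CD68 and KRT8 the other 12 summed to 7.06 to 13.9 TPM in vector and 4.06 to 6.51 TPM in HIF1α/2α-ko. The part of these markers in the results was not tested. Replicate 1 stood apart in every group: across genes, its correlation with its partners on the log2 scale was 0.966 to 0.968 in vector, 0.975 to 0.977 in HIF1α/2α-ko and 0.982 to 0.985 in the single knockouts, against 0.989 to 0.992 between replicates 2 and 3.

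Of the 44 members, 43 reached 1 TPM in 3 or more libraries and were tested with limma on log2(TPM + 1), with adjustment over all 11731 genes tested and a threshold of 0.05. RRP1B, a paralog of RRP1, did not pass this filter. It measured 0.270 to 0.576 TPM in the 9 libraries of the other groups and 0.695, 1.11 and 1.04 TPM in HIF1α/2α-ko. The mean levels of the 44 ran from 0.535 TPM (RRP1B) to 518 TPM (NPM1), with a median of 10.6 TPM against 11.2 TPM over all tested genes. Only 3 members, NPM1, FBL and NHP2, averaged at least 100 TPM, and 14 averaged under 5 TPM.

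Most of the set rose with both subunits knocked out, and few members were called with either one alone. In HIF1α/2α-ko against vector, 29 of 43 members rose and 1 fell, where 31.8% of all tested genes were called higher and 14.8% lower. In HIF1α-ko, NOP56 rose and PPAN and FBL fell, and the other 40 were not called. The shares over all tested genes in that comparison were 17.3% higher and 8.77% lower. In HIF2α-ko no member was called by limma, 12 had an unadjusted p under the threshold, and the shares over all tested genes were 5.07% higher and 5.89% lower. The median log2 fold change of the members was 0.74 in HIF1α/2α-ko beside 0.21 over all tested genes. For HIF1α-ko these medians were 0.13 and 0.18, and for HIF2α-ko they were -0.16 and -0.04. These 3 comparisons share the vector libraries. Set against the median over all genes, the members' median was therefore 0.53 in HIF1α/2α-ko, -0.12 with HIF2α alone knocked out and -0.05 with HIF1α alone knocked out. With the libraries rescaled by median ratios, which brought the median of all genes near 0, the counts were 24 higher and 2 lower in HIF1α/2α-ko. They were 1 higher and 5 lower for HIF1α-ko, and 0 higher and 2 lower for HIF2α-ko. Shares over all tested genes were not computed under this scaling. The members' median less that of all genes was then 0.51 in HIF1α/2α-ko, -0.04 in HIF1α-ko and -0.14 in HIF2α-ko.

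**Figure D1:**
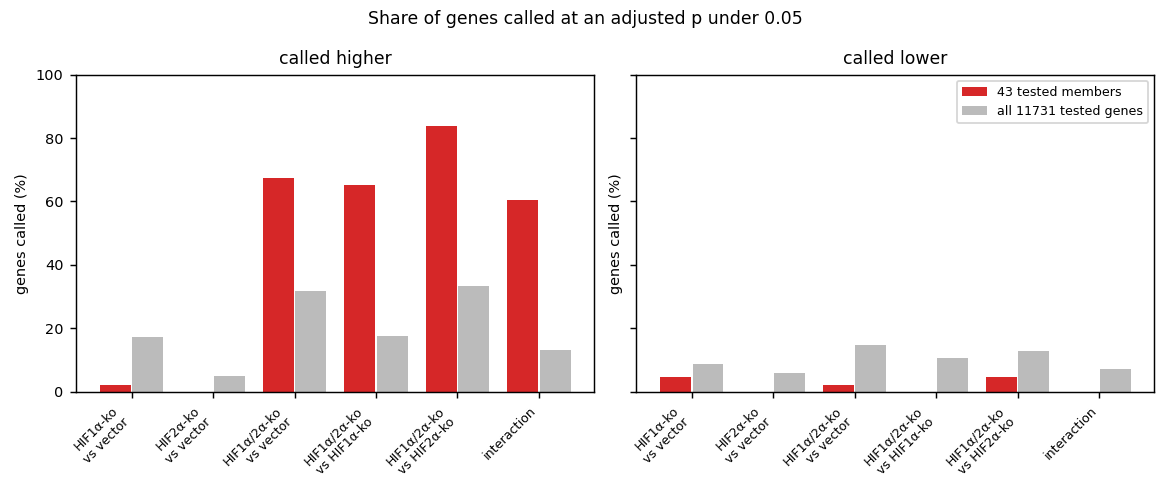
Share of genes called at an adjusted p under 0.05 in each comparison, in percent, for the 43 tested members and for all 11731 tested genes, called higher on the left and lower on the right. For HIF1α/2α-ko against vector the members' bar for higher calls stands above the 31.8% of all genes, and for HIF1α-ko it stands below the 17.3% of all genes.

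Set against the mean of all tested genes, the library values also placed HIF1α/2α-ko highest, with both single knockouts below vector. Without that subtraction, the members' own means overlapped between vector (3.43, 3.51 and 3.49) and HIF1α-ko (3.32, 3.59 and 3.51). Those of HIF2α-ko stayed below vector (3.20, 3.35 and 3.36). The mean log2(TPM + 1) of the tested members, less that of all tested genes, was -0.37, -0.18 and -0.27 in the vector libraries. It was -0.50, -0.38 and -0.38 in HIF1α-ko and -0.44, -0.41 and -0.40 in HIF2α-ko. In HIF1α/2α-ko it was 0.07, 0.47 and 0.46, so all 3 libraries lay above the other 9 and replicate 1 lay closest to them. Replicate 1 was the lowest of the 3 HIF1α/2α-ko libraries in 40 of the 44 members. All 3 HIF1α/2α-ko libraries exceeded all 3 vector libraries for 28 of the 43 tested members, against 33.1% of all tested genes, and they were all below for 1 member, PPAN, against 17.4%. For 23 members they exceeded all 9 other libraries, a pattern seen in 17.4% of all tested genes. A higher share of cells that express a factor and more RNA per cell cannot be told apart in bulk libraries.

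**Figure D2:**
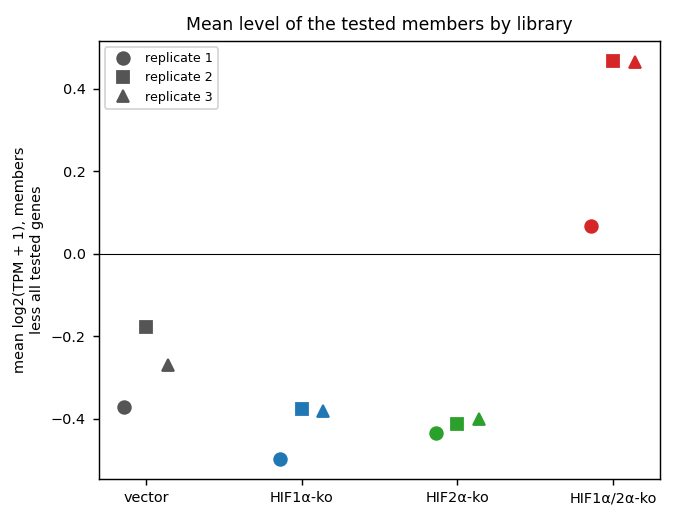
Mean log2(TPM + 1) of the 43 tested members less the mean of all tested genes, for each of the 12 libraries; the symbol gives the replicate number. The 3 HIF1α/2α-ko libraries sit between 0.07 and 0.47, and the other 9 sit between -0.50 and -0.18.

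The 4 largest rises in HIF1α/2α-ko were in RRS1, NOP2, DDX21 and TCOF1. RRS1, a factor that brings the 5S particle into the large subunit, measured 1.05, 1.13 and 0.880 TPM in vector, 1.33, 1.76 and 1.34 TPM in HIF1α-ko, 0.846, 0.590 and 0.986 TPM in HIF2α-ko and 6.36, 13.8 and 12.03 TPM in HIF1α/2α-ko. The 3 HIF1α/2α-ko libraries did not overlap any other group and the ratio of their mean to vector was 10.5. Its log2 fold change was 2.48 ± 0.23 (SE, limma adjusted p = 8.2e-06). In the GENCODE annotation 11.4% of its exon bases also belong to a long transcript on the same strand that is not in the table.

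NOP2, a methyltransferase that modifies the large-subunit RNA and a classical proliferation antigen, measured 5.25, 4.50 and 3.88 TPM in vector and 19.2, 33.8 and 32.1 TPM in HIF1α/2α-ko. It lay at 5.76, 8.18 and 8.01 TPM in HIF1α-ko and at 3.37, 5.05 and 3.81 TPM in HIF2α-ko. The HIF1α/2α-ko libraries stood clear of all others, at 6.25 times the vector mean (log2 fold change 2.37 ± 0.23, limma adjusted p = 1.1e-05). The HIF1α-ko libraries of NOP2 also overlapped no other group, above vector and below HIF1α/2α-ko (0.58, limma adjusted p = 0.078). They were called higher without HIF1α/2α-ko replicate 1, without replicate 1 of every group and with the replicate number as a block. Another annotated transcript on the same strand, not in the table, shares 54.4% of the NOP2 exon bases, so the division of reads between them is uncertain.

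DDX21, an RNA helicase that connects polymerase I transcription with RNA processing, measured 2.499, 2.72 and 2.30 TPM in vector, 2.47, 5.41 and 4.50 TPM in HIF1α-ko, 1.39, 2.06 and 1.94 TPM in HIF2α-ko and 11.1, 16.1 and 20.3 TPM in HIF1α/2α-ko. The HIF1α/2α-ko libraries were again apart from the other 9, with 6.32 times the vector mean and a log2 fold change of 2.23 ± 0.25. DDX21 was called higher in HIF1α-ko too (0.76) without HIF1α-ko replicate 1 and without replicate 1 of every group. TCOF1, the treacle protein that holds polymerase I at ribosomal DNA and is mutated in Treacher Collins syndrome, measured 3.77, 4.40 and 4.54 TPM in vector, 4.65, 5.43 and 6.04 TPM in HIF1α-ko, and 4.23, 5.25 and 4.06 TPM in HIF2α-ko. In HIF1α/2α-ko it measured 15.8, 21.1 and 20.4 TPM, which is 4.51 times the vector mean, with a log2 fold change of 1.93 ± 0.17. The groups did not overlap in that comparison either, and the HIF1α-ko libraries of TCOF1 and of RRS1 also lay above vector without a call. TCOF1 had the smallest p of the set there (limma adjusted p = 5.4e-06).

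**Figure D3:**
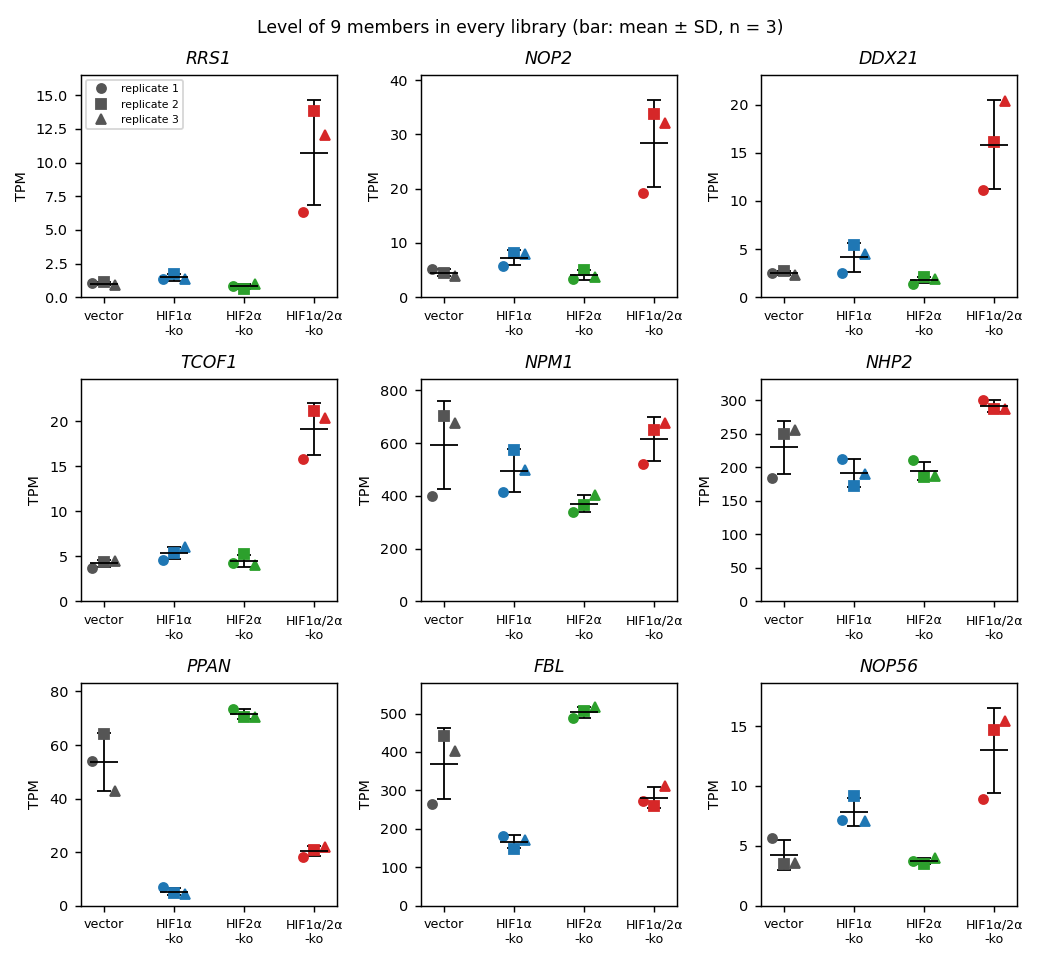
TPM of 9 members in every library on linear axes that start at 0, with the mean and SD of each group of 3 and a symbol for each replicate number. RRS1, NOP2, DDX21 and TCOF1 are highest in HIF1α/2α-ko, PPAN and FBL are lowest in HIF1α-ko, and the HIF1α/2α-ko libraries of NPM1 lie within its vector range.

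Of RNA polymerase I and its partners, 5 of 6 members rose in HIF1α/2α-ko and none was called in either single knockout in the main fit. POLR1A, the largest subunit of the enzyme, averaged 0.536 ± 0.34 TPM (SD, n = 3) in vector and 2.90 ± 1.4 TPM in HIF1α/2α-ko. POLR1B, the second largest, went from 1.45 ± 0.16 to 3.92 ± 2.0 TPM, with replicate 1 at 1.59 TPM and the other libraries at 5.12 and 5.04 TPM. POLR1C, shared with RNA polymerase III, went from 11.4 ± 0.44 to 27.2 ± 5.9 TPM. Their log2 fold changes were 1.29, 0.90 and 1.17, and the POLR1B call was lost without HIF1α/2α-ko replicate 2 or 3 or vector replicate 2 or 3. NOLC1, a chaperone of snoRNPs that binds treacle, rose from 14.7 ± 2.2 to 42.2 ± 9.6 TPM (log2 fold change 1.44). UBTF, the factor that opens ribosomal DNA for the polymerase, was the exception at 18.8 ± 2.2 TPM in vector and 25.6 ± 1.7 TPM in HIF1α/2α-ko (log2 fold change 0.43, limma adjusted p = 0.060). It was called higher there without replicate 1 of vector, HIF1α-ko, HIF2α-ko or every group, and the last of these settings also called it higher in HIF1α-ko and lower in HIF2α-ko. A fit of all libraries with the replicate number as a block likewise called UBTF higher in HIF1α/2α-ko and HIF1α-ko and lower in HIF2α-ko. In HIF1α-ko UBTF averaged 25.8 ± 4.7 TPM, about the level with both subunits knocked out.

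The 3 box C/D snoRNP proteins in the set each took a different course. NOP56, a scaffold protein of the particle, measured 5.67, 3.48 and 3.57 TPM in vector, 7.19, 9.14 and 7.07 TPM in HIF1α-ko, 3.70, 3.46 and 3.95 TPM in HIF2α-ko and 8.92, 14.7 and 15.4 TPM in HIF1α/2α-ko. It rose in both groups without HIF1α, by a log2 fold change of 0.77 ± 0.22 in HIF1α-ko (limma adjusted p = 0.025) and by 1.41 ± 0.22 with both genes knocked out, and the HIF2α-ko libraries overlapped vector. The HIF1α-ko call was lost without vector replicate 2 or 3 or without HIF1α-ko replicate 2 or 3. NOP58, the scaffold protein that pairs with NOP56, showed log2 fold changes of -0.19, -0.02 and 0.20 in the 3 knockouts and no call.

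FBL, the fibrillarin methyltransferase that carries out the ribose methylation, measured 265, 441 and 402 TPM in vector and 181, 148 and 172 TPM in HIF1α-ko. It lay at 487, 507 and 516 TPM in HIF2α-ko and at 272, 259 and 311 TPM in HIF1α/2α-ko. All HIF1α-ko libraries were below every other library, all HIF2α-ko libraries were above every other library, and vector and HIF1α/2α-ko overlapped. Its log2 fold change was -1.11 ± 0.17 in HIF1α-ko (limma adjusted p = 0.0011). The difference from vector was -0.36 ± 0.17 in HIF1α/2α-ko (adjusted p = 0.094) and 0.48 ± 0.17 with HIF2α alone knocked out (adjusted p = 0.089). After median ratio scaling, quantile normalization, or leaving out vector replicate 1, the lowest vector library, FBL was called lower in HIF1α/2α-ko as well.

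All 3 box H/ACA snoRNP proteins in the set rose in HIF1α/2α-ko. DKC1, the pseudouridine synthase dyskerin that also belongs to telomerase, averaged 12.8 ± 1.0 TPM in vector, 14.3 ± 2.8 TPM in HIF1α-ko, 10.5 ± 1.1 TPM in HIF2α-ko and 33.2 ± 15 TPM in HIF1α/2α-ko, where replicate 1 was at 16.6 TPM and the other libraries at 43.9 and 39.0 TPM. GAR1, which binds dyskerin, rose from 12.6 ± 4.3 to 21.2 ± 3.4 TPM (log2 fold change 0.73). NHP2, the RNA-binding core protein and a highly expressed gene, measured 184, 250 and 256 TPM in vector, 213, 172 and 189 TPM in HIF1α-ko, 210, 186 and 188 TPM in HIF2α-ko, and 301.0, 287 and 286 TPM in HIF1α/2α-ko. The HIF1α/2α-ko libraries were above all others, by a log2 fold change of only 0.35 ± 0.14 (limma adjusted p = 0.049), and this call was lost under 17 alternative settings, scalings included. The exons of NHP2 overlap those of RMND5B on the other strand over 27.4% of their length, and whether the counting used the strand is not stated.

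The UtpA complex, which binds the precursor RNA first during small-subunit assembly, showed the smallest share of calls. Of its 5 members only UTP15 rose in HIF1α/2α-ko, from 0.543 ± 0.21 to 2.54 ± 0.60 TPM (log2 fold change 1.19). HEATR1 missed the threshold at 0.61 (limma adjusted p = 0.0501), WDR75 showed 0.48 and WDR43 showed 0.23. WDR43 read 4.08 TPM in replicate 1 of HIF1α/2α-ko and 12.1 and 10.95 TPM in the others. UTP4 averaged 61.1 ± 21 TPM in vector, 35.8 ± 5.1 TPM in HIF1α-ko, 32.0 ± 5.4 TPM in HIF2α-ko and 58.1 ± 18 TPM in HIF1α/2α-ko. Its vector libraries read 36.7, 71.8 and 74.8 TPM, so replicate 1 lay within the range of the single knockouts.

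Among the other small-subunit factors, 3 of 5 rose in HIF1α/2α-ko. NOP14 went from 9.26 ± 0.92 to 17.5 ± 4.9 TPM, RRP9, a protein of the U3 snoRNP, from 1.14 ± 0.14 to 3.27 ± 1.5 TPM, and RRP12 from 1.95 ± 0.27 to 3.13 ± 0.28 TPM, with log2 fold changes of 0.82, 0.93 and 0.48. The RRP12 call was lost with median ratio scaling and with quantile normalization. UTP20, a large scaffold protein of the small-subunit processome, showed 0.37 (limma adjusted p = 0.096). NOC4L, a partner of NOP14, read 18.9, 40.0 and 38.8 TPM in vector and 34.2, 32.6 and 31.2 TPM in HIF1α/2α-ko. The groups overlapped only through vector replicate 1, and with replicate 1 of every group left out, an alternative chosen after seeing the data, its log2 fold change turned from 0.08 to -0.30.

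The PeBoW complex joins PES1, BOP1 and WDR12 and is needed for large-subunit processing. BOP1 rose from 7.66 ± 1.9 to 24.2 ± 4.9 TPM (log2 fold change 1.54) and WDR12 from 2.19 ± 0.35 to 4.75 ± 1.3 TPM (0.83). PES1 was at 94.2 ± 22 TPM in vector and 92.3 ± 18 TPM in HIF1α/2α-ko, a log2 difference of -0.02 ± 0.18. In HIF1α-ko PES1 read 62.9, 68.3 and 66.1 TPM, below every library of the other groups (log2 fold change -0.49, limma adjusted p = 0.059). It was called lower there after either rescaling of the libraries.

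The other large-subunit factors gave the most calls. Of 12 tested, 10 rose and PPAN fell in HIF1α/2α-ko, and NOC3L, a partner of NOC2L, was not called (0.46, limma adjusted p = 0.095). NIP7, a factor of pre-ribosomal RNA processing, rose from 5.06 ± 1.1 to 19.6 ± 5.4 TPM (log2 fold change 1.75) and BRIX1, an assembly factor of the same subunit, from 1.76 ± 0.26 to 6.44 ± 1.9 TPM (1.40). NOP16 rose from 15.4 ± 1.8 to 41.4 ± 11 TPM (1.34). RRS1 and NOP2, described above, belong here too. The remaining rises were smaller, with log2 fold changes of 0.85 for MRTO4, which holds the place of the ribosomal stalk, 0.80 for RRP1, 0.74 for the methyltransferase FTSJ3, 0.72 for NOC2L and 0.51 for EBNA1BP2, and the last was lost with either rescaling.

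PPAN was the only member called lower in HIF1α/2α-ko against vector in the main fit. It measured 54.0, 64.2 and 42.8 TPM in vector, 6.89, 4.66 and 4.21 TPM in HIF1α-ko, 73.5, 70.5 and 70.5 TPM in HIF2α-ko and 18.2, 20.9 and 21.9 TPM in HIF1α/2α-ko. No libraries of any pair of groups overlapped: HIF2α-ko was highest, vector next, HIF1α/2α-ko below that and HIF1α-ko lowest. The group means of FBL stood in the same order, with vector and HIF1α/2α-ko libraries overlapping. For PPAN the log2 fold change was -3.13 ± 0.18 in HIF1α-ko (limma adjusted p = 2.0e-06). With both genes knocked out it was -1.34 ± 0.18 (adjusted p = 0.00010), and both calls held in every alternative run. In HIF2α-ko it was 0.43 ± 0.18 (adjusted p = 0.16).

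The PPAN exons cannot be read alone. PPAN-P2RY11, a readthrough gene that joins PPAN to the purinergic receptor gene P2RY11, shares 56.0% of the PPAN exon bases on the same strand, and how reads were divided between them is not stated. The readthrough gene measured 23.2, 19.9 and 24.9 TPM in vector, 4.93, 6.37 and 4.58 TPM in HIF1α-ko, 40.1, 41.3 and 42.5 TPM in HIF2α-ko and 10.6, 14.4 and 17.8 TPM in HIF1α/2α-ko. It thus took the same order of groups as PPAN, with log2 fold changes of 0.84 with HIF2α alone knocked out, -0.65 with both genes knocked out and -1.92 in HIF1α-ko, all called. P2RY11 itself ranged from 1.03 to 10.1 TPM within vector and was not called against vector. Of the neighbouring genes, EIF3G measured 172 to 196 TPM in vector and 225 to 321 TPM in HIF1α/2α-ko, where it rose (0.47), and it was not called in either single knockout; ANGPTL6, on the other strand, rose in HIF2α-ko (0.72 ± 0.19, limma adjusted p = 0.027), from 0.572 ± 0.26 TPM in vector to 1.61 ± 0.51 TPM, and showed -0.05 in HIF1α/2α-ko without a call.

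**Figure D4:**
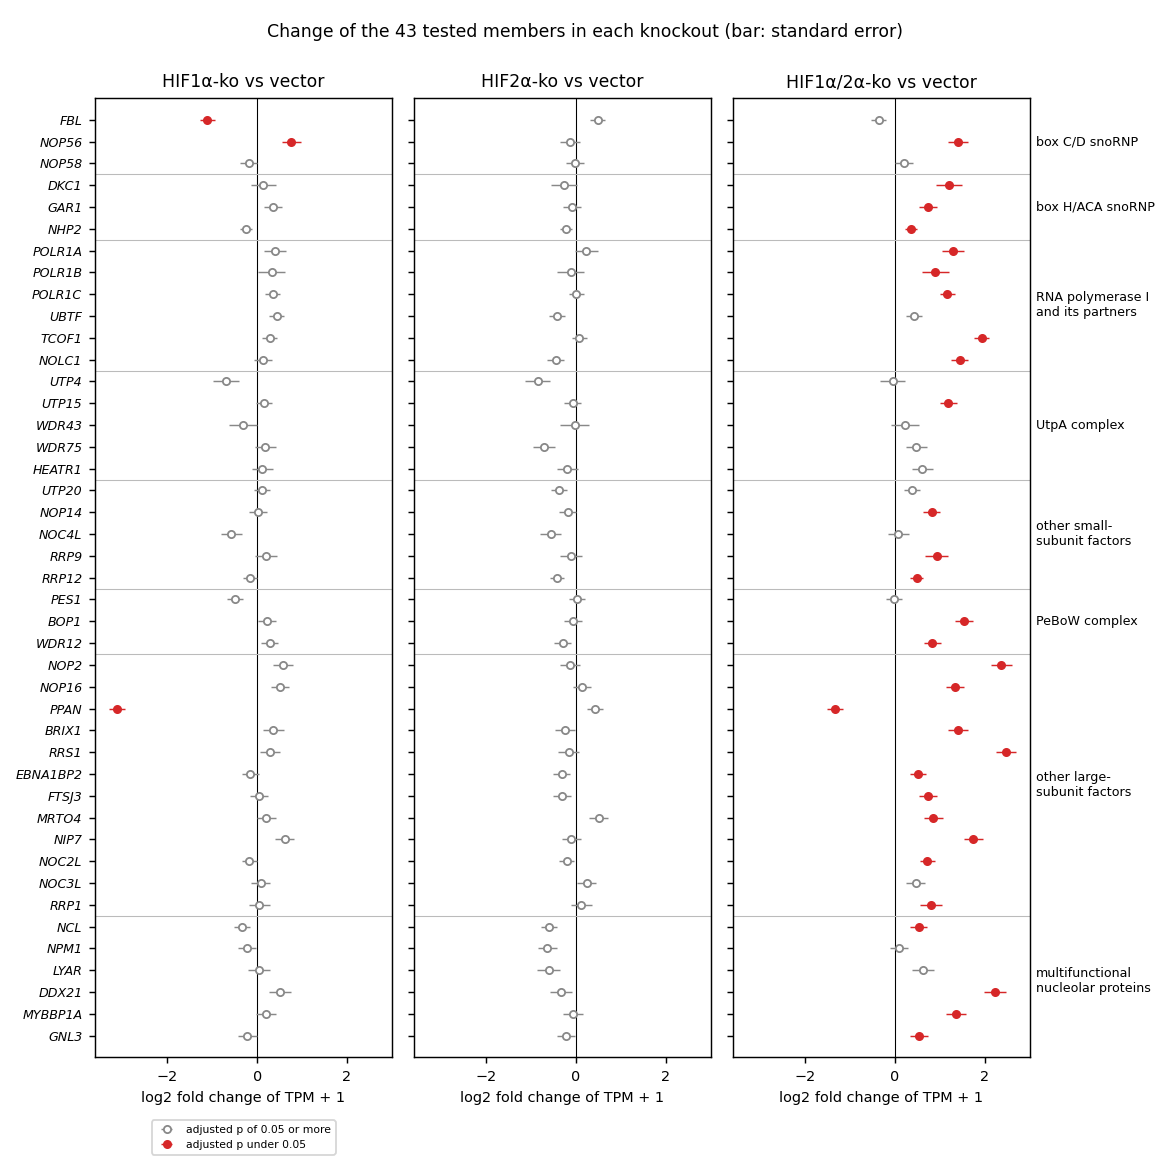
Log2 fold change of TPM + 1 against vector, with the standard error from limma, for the 43 tested members in the order of their roles, 1 panel for each knockout. Filled points passed an adjusted p of 0.05: 30 members in HIF1α/2α-ko, 3 in HIF1α-ko and 0 in the middle panel, and PPAN is the member farthest to the left.

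Of the multifunctional nucleolar proteins, 4 of 6 rose in HIF1α/2α-ko. MYBBP1A, a repressor of transcription that shuttles out of the nucleolus, rose from 3.599 ± 0.37 to 11.3 ± 3.9 TPM (log2 fold change 1.37). NCL, nucleolin, went from 44.7 ± 3.5 to 66.4 ± 16 TPM and GNL3, nucleostemin, from 68.4 ± 9.1 to 100.3 ± 19 TPM, with log2 fold changes of 0.53 and 0.54. Neither of these calls was kept under median ratio scaling or quantile normalization. DDX21 is described above.

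NPM1, nucleophosmin, the most abundant member, measured 400.0, 704 and 675 TPM in vector, 413, 575 and 497 TPM in HIF1α-ko, 340.4, 367 and 403 TPM in HIF2α-ko and 519, 650.3 and 677 TPM in HIF1α/2α-ko. Vector replicate 1 lay far below its partners and inside the range of the single knockouts, and the HIF1α/2α-ko libraries lay within the vector range. The log2 fold change in HIF1α/2α-ko was 0.09 ± 0.20 and in HIF2α-ko -0.64 ± 0.20 (limma adjusted p = 0.064). LYAR, a nucleolar growth regulator, went from 4.47 ± 0.48 to 7.70 ± 2.7 TPM without a call (0.62, adjusted p = 0.059).

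**Figure D5:**
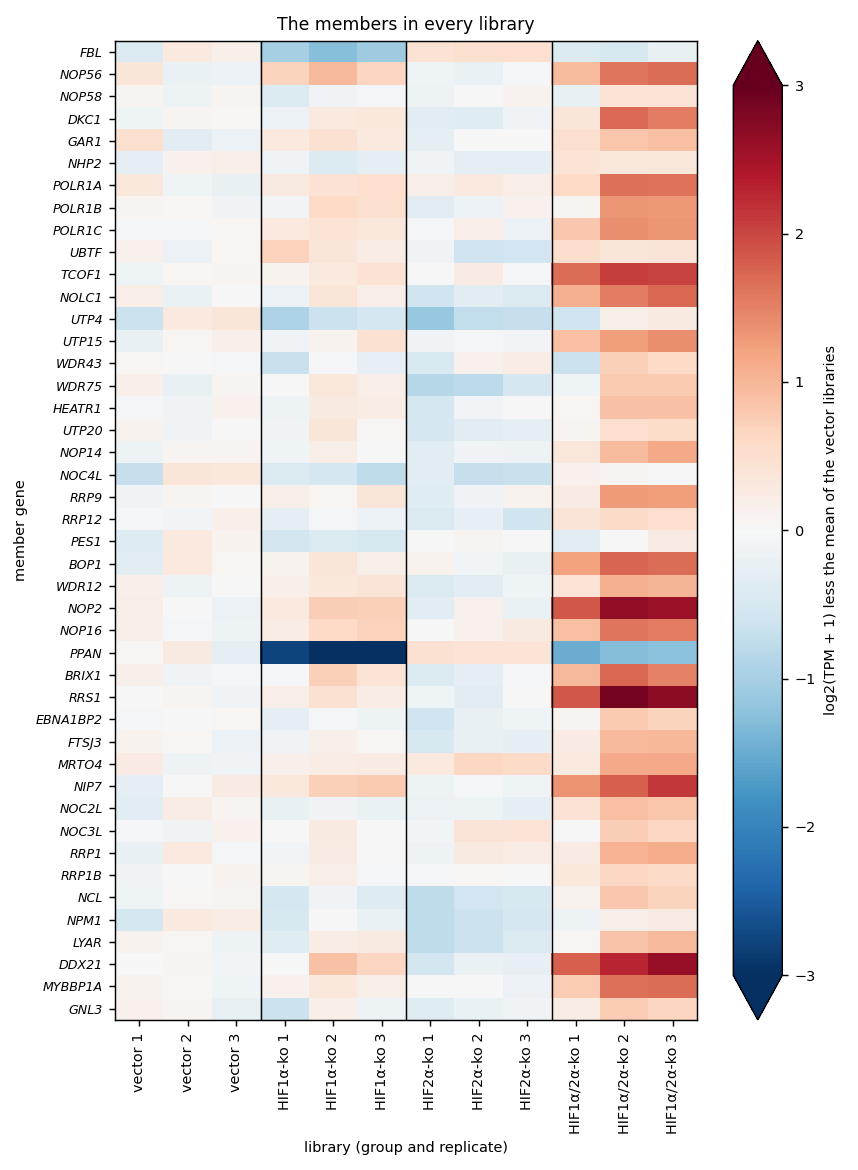
Log2(TPM + 1) of the 44 members in 12 libraries, each less the mean of the 3 vector libraries; red is higher and blue lower, on a scale cut at -3 and 3. Most rows are red in the HIF1α/2α-ko columns and paler in its replicate 1, and the PPAN row is darkest blue in HIF1α-ko.

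The comparison of HIF1α/2α-ko with each single knockout asks, by the group labels, what the loss of the second subunit added. At the transcript level, neither HIF1A nor EPAS1 was called between HIF1α/2α-ko and HIF2α-ko. Between HIF1α/2α-ko and HIF1α-ko, 1 of these genes was called higher and 1 lower. HIF1A lay above every HIF1α-ko library in HIF1α/2α-ko. Against HIF1α-ko, 28 of 43 members rose and none fell, where 17.7% of all tested genes were called higher and 10.6% lower by limma. The median log2 difference of the members was 0.73 beside 0.07 over all tested genes. FBL and PPAN were among those that rose, by 0.75 ± 0.17 and 1.79 ± 0.18, so both were less low with the second subunit also knocked out. Against HIF2α-ko, 36 rose and 2 fell, where 33.5% of all tested genes were called higher and 12.9% lower, and the median was 1.03 beside 0.23. The 2 that fell were PPAN (-1.77 ± 0.18) and FBL (-0.84 ± 0.17). The members not called in that comparison were NOP58, WDR43, PES1, MRTO4 and NOC3L.

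Whether the change with both subunits knocked out differed from the sum of the single changes was tested with the interaction term of the model, in log2 units. It was positive and called for 26 of 43 members and negative and called for none, where 13.2% of all tested genes were called positive and 7.35% negative. The median was 0.98 beside 0.12 over all tested genes. The smallest p belonged to RRS1, with log2 fold changes of 0.29 and -0.16 in the single knockouts, 2.48 with both genes knocked out and an interaction of 2.35 ± 0.32 (limma adjusted p = 0.0011). All 6 multifunctional nucleolar proteins had a called interaction, NPM1 (0.95) and LYAR (1.19) included, but the call was lost in 11 alternative settings for NPM1, 9 for GNL3 and 8 for LYAR. For PPAN the term was 1.36 ± 0.26 with a fall in HIF1α/2α-ko, since the single log2 changes of -3.13 and 0.43 add up to a lower value than the -1.34 measured. NOP56, by contrast, had changes of 0.77, -0.13 and 1.41 and an uncalled term of 0.77.

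The calls in the single knockouts depended on the replicate 1 libraries. Without vector replicate 1, HIF1α-ko had 2 members higher and 7 lower and HIF2α-ko had 0 higher and 5 lower, which were NHP2, UTP4, NOC4L, NCL and NPM1. Without HIF1α-ko replicate 1, HIF1α-ko had 4 higher and 2 lower. Without HIF1α/2α-ko replicate 1, which enters through the shared estimate of the spread, the counts were 4 higher and 3 lower in HIF1α-ko and 1 higher and 3 lower in HIF2α-ko. With replicate 1 of every group left out they were 13 and 8, and 2 and 9. In HIF1α/2α-ko the same omission gave 36 higher and 3 lower, and leaving out any 1 library gave 22 to 34 higher. Against HIF1α-ko, 18 members were called without HIF1α/2α-ko replicate 3. The interaction was called for 15 without HIF1α/2α-ko replicate 2, for 16 without HIF1α/2α-ko replicate 3 and for 16 without vector replicate 2. Shares over all tested genes were not computed for these omissions, so the shifts are not read as particular to the members.

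Further genes of the same pathway came from lists of non-members, read beside the 31.8% of all tested genes called higher and the 14.8% called lower in HIF1α/2α-ko. Of 45 other small-subunit factors tested, 22 rose and none fell in HIF1α/2α-ko, with a median log2 fold change of 0.48. PNO1, a partner of the dimethyltransferase of the small subunit, measured 0.916, 1.51 and 1.24 TPM in vector and 5.67, 10.7 and 10.7 TPM in HIF1α/2α-ko (2.13 ± 0.22), and RRP36 showed 1.58 ± 0.17. Of 38 other large-subunit factors tested, 13 rose and ZNF622 fell, a share of rises near that of all tested genes, with a median of 0.43. SENP3, a SUMO protease of the nucleolus, measured 12.5, 15.1 and 19.1 TPM in vector and 48.7, 61.4 and 60.04 TPM in HIF1α/2α-ko (1.81 ± 0.17), while EIF6, the factor that keeps the subunits from joining, showed 1.06 ± 0.11 and was also called higher in HIF1α-ko (0.52) and HIF2α-ko (0.63).

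Other RNA polymerase I genes gave 6 higher and 1 lower of 16, again near the 31.8% called higher over all tested genes, with a median of 0.32. POLR1H rose in all 3 knockouts (0.68, 0.73 and 0.94) and TAF1D rose in HIF1α/2α-ko (0.98). The lower one was POLR2H, a subunit shared by the RNA polymerases. Of 10 snoRNP genes outside the set, SNU13 and NOP10 included, 3 rose, led by RUVBL1 (1.76 ± 0.28) and NAF1 (0.85 ± 0.21). Of 14 genes of the RNA exosome, which trims the precursor ends, 5 rose, with EXOSC1 at 0.88 and EXOSC7 at 1.21, and the medians of these 2 lists, 0.21 and 0.23, and their shares of rises were near those of all tested genes.

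The cytosolic ribosomal proteins, the building blocks of the particle, were counted beside the assembly factors. Of 79 tested, 26 rose and 3 fell in HIF1α/2α-ko against vector, so that both the share of rises and the median of 0.25 lay near the 31.8% and the 0.21 of all tested genes. Against HIF1α-ko, 1 of the 79 rose and none fell, where 17.7% of all tested genes were called higher and 10.6% lower. RPL13 and RPS9 were called higher in all 3 knockouts, RPL13 by 0.66, 0.49 and 0.74 and RPS9 by 0.57, 0.46 and 0.49.

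MYC itself could not be resolved. It measured 21.5, 4.43 and 4.67 TPM in vector, 11.7, 2.87 and 2.93 TPM in HIF1α-ko, 10.1, 19.5 and 14.5 TPM in HIF2α-ko and 24.4, 7.08 and 21.3 TPM in HIF1α/2α-ko. Its libraries overlapped between every pair of groups and ranged widely within vector and HIF1α/2α-ko, and the log2 fold change of 0.91 ± 0.61 in HIF1α/2α-ko was not called (limma adjusted p = 0.24). Of 10 tested genes of the MYC network, MNT rose (0.59 ± 0.13) and MXI1 fell. MXI1, a MYC antagonist and a known target of the hypoxia-inducible factors, measured 257, 472 and 558 TPM in vector and 194, 177 and 177 TPM in HIF1α/2α-ko, and its log2 fold change was -1.15 ± 0.24 there and -0.90 ± 0.24 in HIF1α-ko.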

How the data were processed

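Messenger RNA of U87 cells was sequenced in 12 libraries, 3 per group. The authors deposited TPM values, 1 column per library without pooling; the labels describe an mRNA-seq kit. The submitters' processing notes name FastQC 0.11.2, Trimmomatic 0.36, HISAT2 2.0, bedtools 2.26.0 and GRCh38; the counter and the annotation are not given in the sources used here. TPM keeps no depth, so no interval or detection limit was computed. The study's general methods state a shorter hypoxia for mRNA detection than the series record used here. Columns without a knockout code in their names were taken as vector.

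Symbols were found for 20148 identifiers in a gene name table and for 76 in GENCODE 29. TPM was transformed to log2(TPM + 1), so that fold changes of low genes are understated, and genes that reached 1 TPM in 3 or more libraries entered 1 limma model of all 4 groups (version 3.58.1, R 4.3.3; trended prior variance). Every adjusted p comes from limma with Benjamini-Hochberg adjustment over the 11731 genes tested. The members and lists were chosen with earlier results of these data known, so counts over them are descriptions. By rule, library values were given for up to 4 of the largest called rises and falls against vector without overlap, the 3 most abundant members and the smallest interaction p. Of other lists, the 2 genes lowest in p when both subunits were knocked out were named, with MYC, MXI1 and the PPAN neighbours. Library values were given for only some of these. ZNF622, POLR2H, ANGPTL6 and the cell line markers were named, and library values of PES1, NOC4L, UTP4, WDR43, POLR1B, DKC1 and RRP1B were given, after their values were seen. The results of 1 list and of 1 marker gene are not reported here. Same-numbered libraries of the 3 knockout groups deviated together from their group means (r = 0.196 to 0.508, each over 0.1), and those of vector did not pair with them (r = -0.0265 to 0.163). Replicates 2 and 3 of different knockout groups also deviated together across numbers (r = 0.158 to 0.302). Replicate 1 ran against both (r = -0.416 to -0.269). Deviations from a group mean cancel within the group, so part of these patterns is forced. The correlations therefore cannot show whether the numbers mark pairs. Other steps used pandas 2.3.3 and numpy 2.4.6 under Python 3.11.15, and plots used matplotlib 3.10.9. The fit was tested on simulated data. Alternatives were median ratio scaling, quantile normalization, a replicate block, an untrended prior, fits of 2 groups only, a smaller pseudocount (0.1), no low-value filter or a stricter one (mean TPM 5), a required log2 change of 1 and the omission of each library.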

Additional observations from a re-analysis of the deposited data

Results flagged for a closer look

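The interaction term was tested for each member, and 26 passed an adjusted p of 0.05 (limma), which tests whether the effect of losing one subunit differed with the presence of the other. The terms, in log2 units, were 2.35 for RRS1, 1.93 for NOP2, 1.36 for PPAN, 1.28 for BRIX1, 1.24 for NIP7, 1.11 for NOC2L, 1.03 for FTSJ3 and 0.98 for EBNA1BP2 among the large-subunit factors. The PeBoW complex gave 1.40 for BOP1 and 0.84 for WDR12. Among RNA polymerase I and its partners they were 1.77 for NOLC1, 1.58 for TCOF1 and 0.82 for POLR1C. The small-subunit factors gave 1.502 for UTP4, 1.22 for NOC4L, 1.12 for UTP15, 1.07 for RRP12 and 0.99 for NOP14, and the box H/ACA proteins gave 1.33 for DKC1 and 0.83 for NHP2. The multifunctional nucleolar proteins gave 2.06 for DDX21, 1.47 for NCL, 1.23 for MYBBP1A, 1.19 for LYAR, 0.98 for GNL3 and 0.95 for NPM1. For UTP4, NOC4L and NPM1 the term came with HIF1α/2α-ko near vector and both single knockouts below it: the log2 fold changes of UTP4 were -0.70 and -0.86 in the single knockouts and -0.05 with both genes knocked out, and none of them was called. For RRS1, NOP2, DDX21 and TCOF1 it came with a rise in HIF1α/2α-ko and no call in either single knockout in the main fit, though NOP2 and DDX21 were called higher in HIF1α-ko under some alternatives. Called terms were lost in 12 alternative settings for WDR12, 11 each for DKC1 and NPM1, 9 each for POLR1C and GNL3, 8 each for LYAR, NOC4L and NOP14, 6 for FTSJ3, 4 for UTP4, 2 for EBNA1BP2 and 1 for NHP2.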

How the results depend on the processing

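PPAN and the larger rises in HIF1α/2α-ko held in every setting that tested them, and the counts in the single knockouts moved. RRS1, BRIX1, UTP15 and POLR1A averaged under 5 TPM and were not tested with the stricter filter. Members called in HIF1α-ko numbered 3; median ratio scaling gave 6, quantile normalization 5, the replicate block 8 and leaving out replicate 1 of every group 21. In HIF2α-ko the number was 0; a filter at a mean TPM of 5 gave 1, median ratio scaling 2, quantile normalization 2, the replicate block 5 and leaving out replicate 1 of every group 11. That last setting was chosen after seeing the data; it also turned NOC4L in HIF1α/2α-ko from 0.08 to -0.30. Of 30 members called in HIF1α/2α-ko, 16 changed by at least 1 on the log2 scale (15 higher and PPAN lower), as did 12 of 28 against HIF1α-ko, all higher, and 24 of 38 against HIF2α-ko, 23 of them higher. Leaving out 1 library in turn gave 2 to 9 members in HIF1α-ko, 0 to 5 in HIF2α-ko, 23 to 35 in HIF1α/2α-ko, 18 to 38 against HIF1α-ko, 33 to 39 against HIF2α-ko and 15 to 36 for the interaction. The replicate block among the knockout groups gave 39 higher against HIF1α-ko and 36 higher and 2 lower against HIF2α-ko, within 1.5 times the counts without it. With the block over all 4 groups, UBTF was called higher in HIF1α-ko and HIF1α/2α-ko and lower in HIF2α-ko, NOP2 was called higher in HIF1α-ko, and HEATR1, NOC3L and LYAR were called higher in HIF1α/2α-ko. Calls lost most often in HIF1α/2α-ko were NHP2 (17 settings), GNL3 (13), EBNA1BP2 (8) and NCL (8). Shares over all tested genes were computed for the main fit only, so these shifts are not read as particular to the members. Their cause was not tested. TPM sets no limit from depth that could be computed.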
